A study of Mus musculus with 24 samples.

Results

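Cdkn1a, the 3 Gadd45 genes, Btg2, Ccng1, Mdm2, Ccnd1 and Myc were followed in mouse liver: 9 genes, matched by symbol, out of 41388 genes listed for each library. They were named together as growth arrest and cell cycle entry genes at a time when results from these libraries were already known, Gadd45b after fasting of control mice among them. For that reason the fasting differences of these 9 genes in control mice are given as values only, without a p. Counts of them past a threshold are described but support nothing. The choice was not shown to be independent of the knockout libraries either. A p given for these genes there is therefore no independent test. The gene lists used further below were also chosen with earlier results known. Any p or count given for their genes is therefore description alone. Liver RNA selected with oligo-dT came from knockout mice fasted for 18 h (6 libraries), control mice fasted for 18 h (5 of 6 libraries used), knockout mice with free access to food (6 libraries) and control mice with free access to food (5 of 6 libraries used). Knockout mice, labelled LSALT2KO, lack Gpt2, the gene of mitochondrial alanine transaminase 2, in liver. Control mice are named fl/fl in the sample titles, so they carry the floxed allele as well. The driver of the deletion, the strain and the age were not given in the sources used here, and nothing states that the libraries of a group come from separate animals, so a p-value measures the spread between these libraries. The design asks how the liver answers fasting with and without this enzyme.

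Cells hold their cycle back in G1 through proteins that block cyclin-dependent kinases. Cdkn1a encodes p21, the inhibitor best known as a target of the tumour suppressor p53, while Ccnd1 (cyclin D1) and Myc act on the other side and push a resting cell towards division. The GADD45 proteins are small stress-induced partners of MAP kinase kinase kinases, cell cycle proteins and DNA repair factors, Btg2 is an antiproliferative cofactor of mRNA deadenylation, and Mdm2 and Ccng1 are p53 targets that feed back on p53. Nearly all hepatocytes of an adult liver rest outside the cycle, and several of these genes are also known to answer glucocorticoids and other hormones of fasting there.

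Promoter sequences are shown for 2 pairs of genes whose levels are contrasted below. Cdkn1a (in the window shown) and Mdm2 share the p53 decamer. They were the most and the least variable of the 9 genes in fasted knockout livers. Gadd45b and Gadd45g share the E-box CACGTG and had higher mean levels after fasting in both genotypes. Cdkn1a, Mdm2, Btg2 and Myc also had higher fasted means in both genotypes, so that trait is not particular to the E-box pair. RefSeq (GRCm38.p6) held promoters for 7 of the 9 genes. Each line gives the 250 bases before an annotated start (for Cdkn1a, the upstream of 2), 5′ to 3′ on the gene's strand, with capitals for p53 decamers in the first pair and for CACGTG in the other.
Cdkn1a (chr17:29090729-29090978, plus strand): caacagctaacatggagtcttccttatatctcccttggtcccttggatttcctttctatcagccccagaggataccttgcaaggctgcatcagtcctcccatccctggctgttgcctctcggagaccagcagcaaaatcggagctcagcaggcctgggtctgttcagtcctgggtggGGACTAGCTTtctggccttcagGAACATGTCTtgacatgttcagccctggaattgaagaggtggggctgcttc
Mdm2 (chr10:117710759-117711008, minus strand): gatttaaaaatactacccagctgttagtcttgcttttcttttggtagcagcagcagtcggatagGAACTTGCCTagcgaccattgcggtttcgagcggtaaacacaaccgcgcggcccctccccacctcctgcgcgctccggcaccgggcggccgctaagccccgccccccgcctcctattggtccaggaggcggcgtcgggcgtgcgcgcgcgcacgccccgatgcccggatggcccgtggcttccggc
Gadd45b (chr10:80929841-80930090, plus strand): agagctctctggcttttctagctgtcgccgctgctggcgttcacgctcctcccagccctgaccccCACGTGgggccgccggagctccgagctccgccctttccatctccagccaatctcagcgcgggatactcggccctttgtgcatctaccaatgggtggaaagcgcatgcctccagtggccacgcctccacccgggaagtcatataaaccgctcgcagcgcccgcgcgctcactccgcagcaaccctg
Gadd45g (chr13:51846425-51846674, plus strand): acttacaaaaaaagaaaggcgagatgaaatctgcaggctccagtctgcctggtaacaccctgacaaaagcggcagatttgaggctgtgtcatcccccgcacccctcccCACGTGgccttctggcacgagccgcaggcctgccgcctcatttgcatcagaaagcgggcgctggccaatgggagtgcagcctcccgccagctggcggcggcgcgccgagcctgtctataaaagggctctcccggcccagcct

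The search read both strands and 11 motifs. The Cdkn1a window held a pair of p53 decamers, starting at bases -73 and -51 from the start site, and the Mdm2 window held 1 at base -186. Gadd45a and Ccng1 had 1 decamer each as well, at bases -40 and -185. The downstream Cdkn1a window, not shown, held no p53 decamer. Of 32536 promoter windows of the same length in the table, 7.12% held at least 1 such decamer. CACGTG stood at base -185 of Gadd45b and base -142 of Gadd45g, and 6.04% of the windows held it. Both of these windows also carried TATAAA, at bases -46 and -27, which 12.3% of the windows held. The window of Btg2 had TGACGTCA, the cAMP response element, at base -166, a motif present in 1.56% of the windows. None of the p53 decamers or CACGTG matches overlapped another of the motifs searched. A letter match describes the sequence and shows no binding.

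The 22 libraries held 18.4 to 55.3 M reads counted to genes. A control fed file (replicate 6) breaks off within chromosome 1 with 0 of the 9 genes, and the library labelled control fasted replicate 4 had 12900 CPM (reads relative to the library total) of kidney tubule markers and 1335 CPM of hepatocyte markers. Both were left out. Hepatocyte markers summed to between 72524 and 153671 CPM in the 22 libraries used, and 8 of 8 were detected in each group. Gpt2 averaged 112 ± 36.3 CPM in fasted knockout livers and 697 ± 86.7 CPM in fasted control livers, with 60.5 ± 11.3 CPM in fed knockout livers and 370 ± 51.9 CPM in fed control livers (SD). Its knockout differences were -2.64 ± 0.19 (log2, SE) in fasted and -2.61 ± 0.19 in fed livers, with adjusted p = 1.23e-08 and 1.55e-08 (edgeR quasi-likelihood test, Benjamini-Hochberg).

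Fasting moved this small set unevenly. In knockout livers Cdkn1a and Gadd45b were higher after 18 h without food, by 4.35 ± 0.93 and 2.63 ± 0.77 on the log2 scale, and the differences of the other 7 genes did not pass the test. No difference between knockout and control livers passed the test in the 9 genes, fed or fasted. Mdm2 and Ccng1 stayed within narrow ranges in every group, whereas Cdkn1a, Gadd45b, Btg2 and Ccnd1 differed many-fold between libraries of 1 group. Levels below are CPM scaled by trimmed mean of M values (TMM), and differences between genes are read only per kilobase of exon, as RPKM. In this bulk RNA, fewer cells that express a gene and less of its RNA per cell cannot be told apart.

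**Figure D1:**
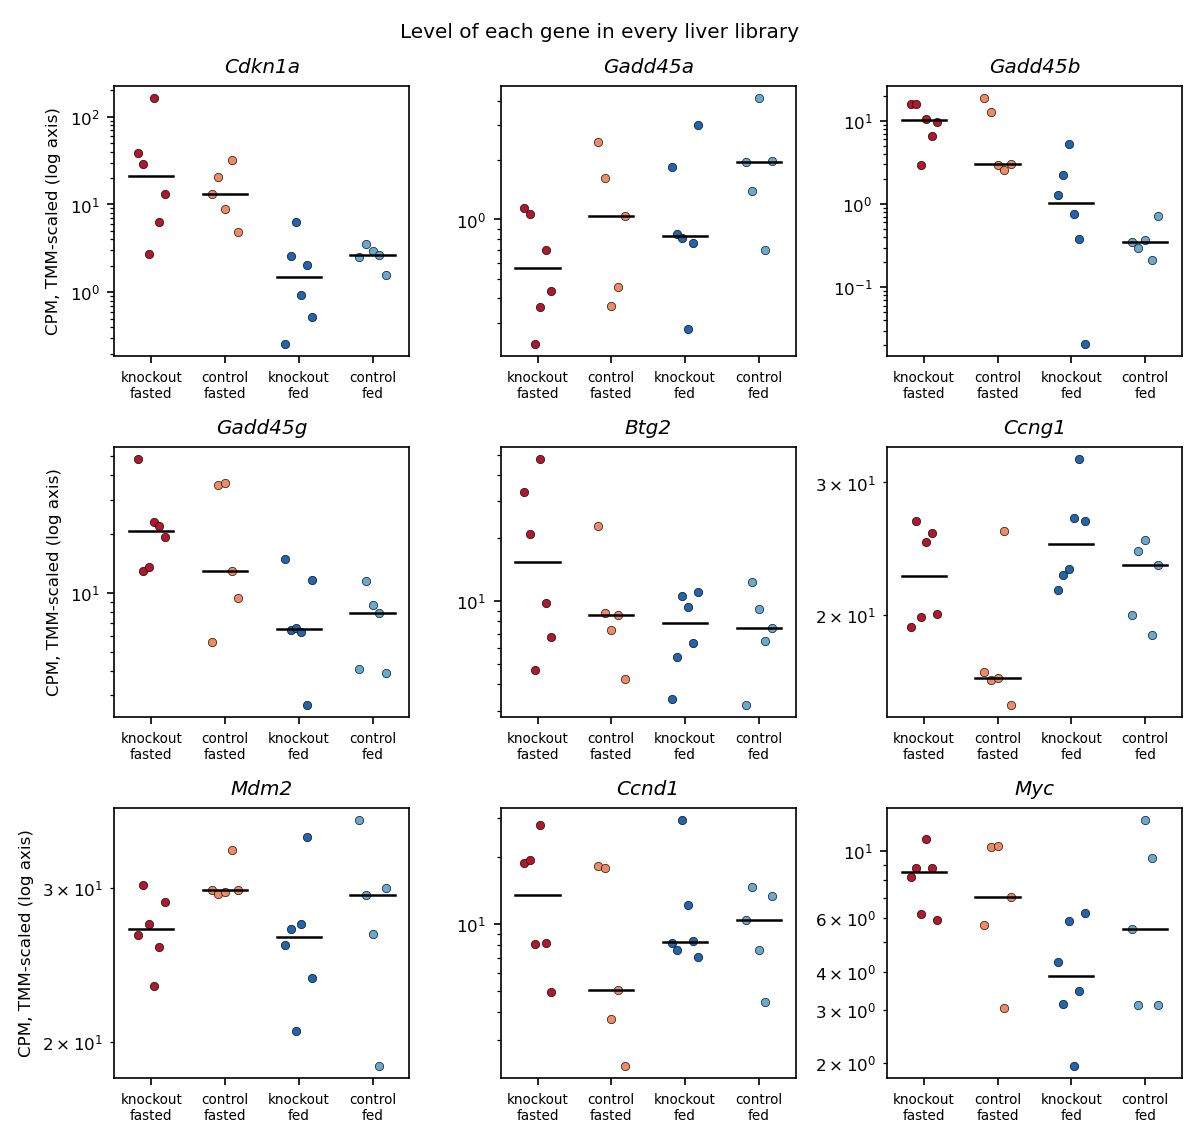
CPM scaled by TMM (log axis) of each of the 9 genes in every library, with a bar at the group median. Cdkn1a spans 2.74 to 162 CPM in fasted knockout livers, while Mdm2 lies between 18.8 and 35.8 CPM in all 22 libraries.

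Cdkn1a, at chr17:29090979-29100722 on the plus strand of GRCm38, had 38.4, 28.7, 2.74, 162, 6.36 and 13.2 CPM in fasted knockout livers (replicates 1 to 6), with a median of 21.0 CPM. Fed knockout livers had 0.257, 2.60, 6.33, 0.935, 2.03 and 0.521 CPM, with a median of 1.48 CPM. All but 1 of the fasted knockout livers, replicate 3, lay above every fed one, so the groups overlapped through that library. The difference was 4.35 ± 0.93 (log2, SE), a 20.3-fold higher level, with adjusted p = 0.0062 in the edgeR fit after Benjamini-Hochberg correction. Replicate 4 alone carried 7179 reads of Cdkn1a. Without it the difference was 3.11 (8.63-fold, adjusted p = 0.0185), and without fed knockout replicate 3 it was 5.08 (33.8-fold, adjusted p = 0.00364). The call ended in edgeR fitted to the groups compared alone (adjusted p = 0.0502), in limma voom with sample weights (0.175) and in limma with title-number clusters (0.284).

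In fasted control livers Cdkn1a had 13.2, 20.3, 8.92, 31.9 and 4.91 CPM, against 2.52, 3.58, 2.92, 2.67 and 1.56 CPM in fed control livers. Every fasted control liver was above every fed one. Means were 15.9 ± 10.6 CPM fasted and 2.65 ± 0.732 CPM fed (SD, n = 5 each), a log2 difference of 2.58 ± 0.95. Fed knockout livers spread Cdkn1a over a 24.7-fold range, with replicates 1 and 6 at the low end and replicate 3 at the high end, and fed control livers over a 2.29-fold range. Gene models place AC167363.2, which has no values here, on the opposite strand of the same region.

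Of the 3 GADD45 genes, Gadd45g carried most of the family's RNA in most libraries and Gadd45b moved the most. The summed level of the family had a median of 24.3 RPKM in fasted knockout livers, 9.02 RPKM in fed knockout livers, 20.9 RPKM in fasted control livers and 7.31 RPKM in fed control livers. Gadd45g made up a median of 72.7% of that sum in fasted and 80.4% in fed knockout livers, and 73.5% in fasted and 73.7% in fed control livers. The share of Gadd45b was 26.3% in fasted and 9.8% in fed knockout livers, and 21.7% in fasted and 3.0% in fed control livers (medians). Gadd45a made up at most 2.5% in fasted knockout livers and 6.7% in fasted control livers, against as much as 14.6% in fed knockout livers and 23.3% in fed control livers.

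**Figure D2:**
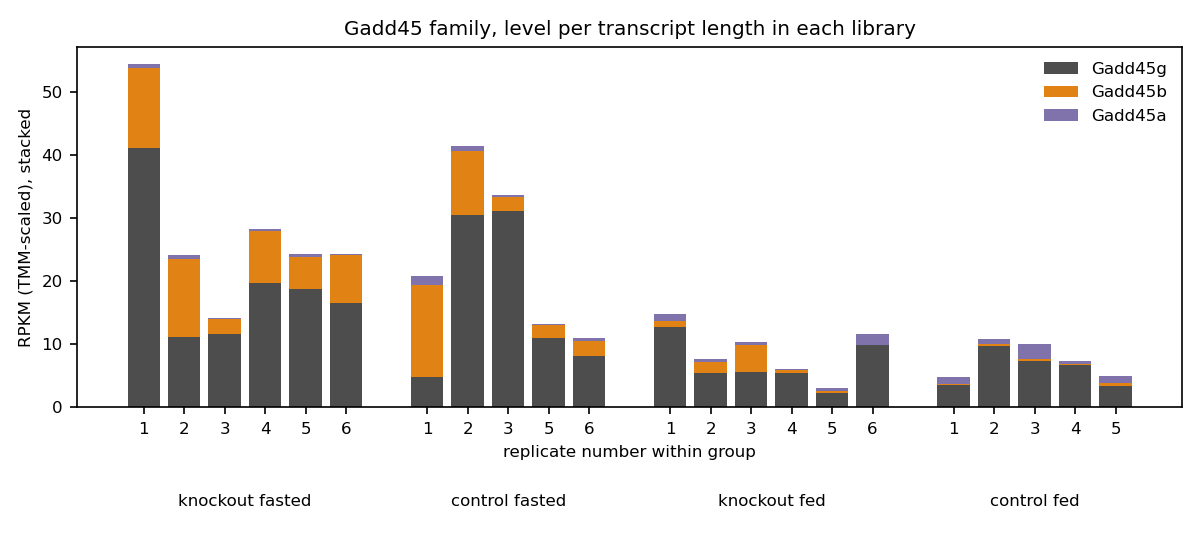
Stacked RPKM of Gadd45g, Gadd45b and Gadd45a in each library, grouped by genotype and feeding. The family sum runs from 14.1 to 54.4 RPKM in fasted knockout and 3 to 14.8 RPKM in fed knockout livers, and from 11 to 41.5 RPKM in fasted control and 4.86 to 10.8 RPKM in fed control livers.

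Gadd45b (chr10:80930091-80932204, plus strand) had 16.0, 15.7, 2.97, 10.5, 6.51 and 9.65 CPM in fasted knockout livers, against 1.28, 2.24, 5.31, 0.748, 0.381 and 0.0208 CPM in fed knockout livers. The lowest of these is 1 read in fed knockout replicate 6, and the groups overlapped only because fed replicate 3 exceeded fasted replicate 3. It rose by 2.63 ± 0.77 (log2, SE; 6.18-fold), with adjusted p = 0.0494 by edgeR with Benjamini-Hochberg adjustment. That call sits at the threshold, since 23 of 32 alternative settings ended it, with adjusted p from 0.00671 to 0.109. Without fed knockout replicate 3 the difference was 3.43 (10.8-fold, adjusted p = 0.00996).

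Fasted control livers had 18.6, 12.8, 2.92, 2.54 and 3.04 CPM of Gadd45b, against 0.346, 0.295, 0.374, 0.211 and 0.725 CPM in fed control livers. Replicates 1 and 2 stood well above the other fasted controls, and the lowest fasted library was still above the highest fed one. Fed control values rest on 6 to 26 reads per library. The log2 difference was 4.32 ± 0.94, and 3.73 (13.3-fold in place of 19.9-fold) without fasted control replicate 1.

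Gadd45g (chr13:51846678-51848468, plus strand) ran from 13.0 to 48.3 CPM in fasted knockout livers (median 20.6) and from 2.67 to 14.9 CPM in fed knockout livers (median 6.53). Fasted replicates 2 and 3 were below fed replicate 1, and all other fasted libraries were above all fed ones. The difference of 1.52 ± 0.50 (log2, SE) had adjusted p = 0.0868 in edgeR and did not pass, while DESeq2 gave 1.51 with adjusted p = 0.0231. Control livers had 5.59, 35.7, 36.5, 12.9 and 9.44 CPM fasted and 4.08, 11.5, 8.63, 7.91 and 3.88 CPM fed, a log2 difference of 1.48 ± 0.55. There fasted replicate 1, the highest for Gadd45b, was the lowest for Gadd45g.

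Gadd45a (chr6:67035096-67037457, minus strand), the p53 target of the family, was, per kilobase, the scarcest of the 9 genes in fasted livers and had the opposite sign. It lay between 0.234 and 1.14 CPM in fasted knockout livers (median 0.569) and between 0.280 and 3 CPM in fed knockout livers (median 0.824). Control livers had 2.47, 1.63, 0.366, 0.456 and 1.04 CPM fasted and 1.95, 1.4, 4.11, 0.703 and 1.98 CPM fed. Groups overlapped in both genotypes, and the differences were -0.94 ± 0.61 in knockout livers (adjusted p = 0.522, edgeR) and -0.77 ± 0.66 in control livers. A gene on the opposite strand, E230016M11Rik, had 2 to 68 reads, and reads of overlapping genes could not be assigned to a strand here.

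Btg2 (chr1:134075170-134079120, minus strand) had 33.1, 20.8, 4.69, 47.5, 9.80 and 6.76 CPM in fasted knockout livers and between 3.39 and 11.1 CPM in fed knockout livers (median 7.82). Replicates 1, 2 and 4 exceeded every fed library and the other 3 fell inside the fed range. The difference of 1.41 ± 0.54 (log2, SE) did not pass (adjusted p = 0.162, edgeR). Control livers had 22.8, 8.75, 7.31, 8.58 and 4.24 CPM fasted and 3.19, 12.3, 9.17, 6.43 and 7.47 CPM fed, where only fasted replicate 1 stood out. The control difference was 0.42 ± 0.59, and -0.09 without that library.

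Mdm2, the ubiquitin ligase that degrades p53, and Ccng1, cyclin G1, were the steady members. Mdm2 (chr10:117688888-117710758, minus strand) ran from 23.2 to 30.2 CPM in fasted knockout livers (median 26.9) and from 20.6 to 34.3 CPM in fed knockout livers (median 26.3). Control livers had 29.8, 29.5, 29.7, 33.1 and 29.8 CPM fasted and 35.8, 29.4, 26.6, 18.8 and 30.0 CPM fed. Fasted values lay inside the fed range in both genotypes. The differences were 0.03 ± 0.13 in knockout livers (adjusted p = 0.973, edgeR), with an interval of 2 SE from -0.23 to 0.29, and 0.11 ± 0.14 in control livers.

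Ccng1 (chr11:40748552-40755311, minus strand) ran from 19.3 to 26.7 CPM in fasted knockout livers (median 22.6) and from 21.6 to 32.2 CPM in fed knockout livers (median 24.9). Fasted control livers had 16.8, 16.4, 16.5, 25.9 and 15.2 CPM, against 20, 24.3, 25.2, 18.8 and 23.3 CPM in fed control livers. All fasted controls except replicate 5 were below all fed controls. The differences were -0.16 ± 0.14 in knockout livers (adjusted p = 0.717, edgeR) and -0.30 ± 0.16 in control livers.

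Ccnd1 (chr7:144929931-144939869, minus strand) and Myc (chr15:61985341-61990374, plus strand) showed no called change with fasting. Ccnd1 had 18.9, 19.5, 8.13, 27.9, 8.23 and 4.91 CPM in fasted knockout livers, and 7.06 to 29.3 CPM in fed knockout livers (median 8.30), of which only replicate 3 was above 12.2 CPM. In control livers it had 18.2, 17.9, 3.73, 5.06 and 2.29 CPM fasted and 10.4, 14.6, 7.65, 4.47 and 13.4 CPM fed, so that fasted libraries lay above, within and below the fed range. The differences were 0.27 ± 0.55 in knockout livers (adjusted p = 0.919, edgeR) and -0.11 ± 0.60 in control livers. LTO1, on the opposite strand at the same locus, had 90 to 521 reads.

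Myc had 8.23, 8.76, 6.22, 10.9, 8.77 and 5.94 CPM in fasted knockout livers, against 4.31, 3.14, 5.86, 1.96, 3.47 and 6.23 CPM in fed knockout livers. Only fed replicate 6 exceeded the lower fasted libraries, replicates 3 and 6. The difference of 0.97 ± 0.33 (log2, SE) had adjusted p = 0.0889 in edgeR, and passed in limma voom with sample weights (0.0444) and in edgeR on the groups compared alone (0.0254). Control livers had 5.72, 10.3, 10.4, 3.04 and 7.03 CPM fasted and 5.54, 3.10, 12.6, 9.46 and 3.12 CPM fed, which overlapped fully, with a difference of 0.10 ± 0.36.

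Counted together, 2 of the 9 genes were called higher by fasting in knockout livers and 0 lower, where 2.88% of the 16757 genes tested were called higher and 3.26% lower. In control livers 1 of 9, Gadd45b, was past the same threshold, where 3.99% of all genes were called higher, a count from which nothing is read because that value was known when the genes were named. All 9 passed the filter on low counts. The groups did not overlap for Cdkn1a and Gadd45b in control livers, both higher fasted, while 3.87% of all tested genes were separated in that direction. No member was separated in knockout livers, where 3.97% of all genes were separated in either direction. The members' median log2 difference was 0.97 in knockout livers and 0.11 in control livers, beside medians over all tested genes of 0.01 and 0.00. The fasting comparisons of the 2 genotypes share no libraries but rest on 1 estimate of the spread.

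**Figure D3:**
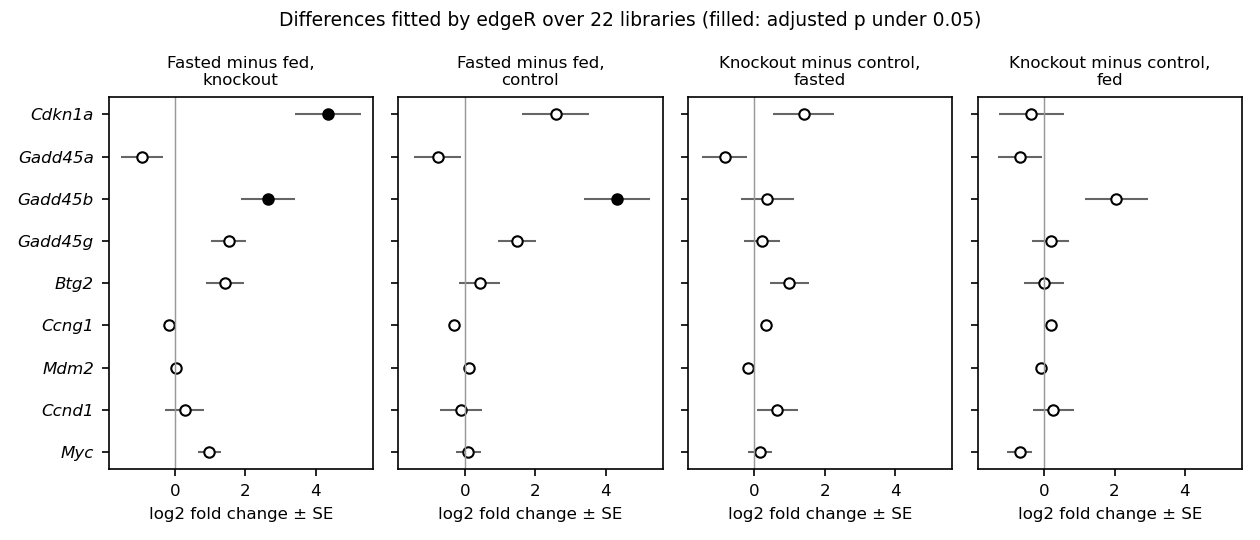
Log2 fold changes with SE (bars) of the 9 genes for fasted over fed livers and for knockout over control livers, from 1 edgeR fit of 22 libraries. Filled points passed an adjusted p of 0.05: Cdkn1a and Gadd45b in knockout livers and Gadd45b in control livers. The value of Gadd45b in control livers was known when the genes were named.

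Loss of Gpt2 went with no called change in these genes, in either feeding state. In fasted livers 0 of 9 passed edgeR's test after Benjamini-Hochberg correction, and 1, Ccng1, had an unadjusted p under 0.05. In fed livers 0 of 9 passed, and 1, Gadd45b, had an unadjusted p under 0.05. The interaction of genotype and feeding gave 0 of 9 passed and 0 at the unadjusted level. DESeq2 and limma voom also called 0 of 9 in each. Gpt2 itself was the gene called in both genotype comparisons, 0.00597% of those tested, and 0.00597% were called in the interaction. Unadjusted, 672 of 16757 genes tested had p under 0.05 in fasted livers, 1509 in fed livers and 786 in the interaction.

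The intervals of these genotype differences are wide for the variable genes. Cdkn1a averaged 41.9 ± 60.3 CPM in fasted knockout livers (n = 6) and 15.9 ± 10.6 CPM in fasted control livers (n = 5), a log2 difference of 1.4 ± 0.86 with an interval of 2 SE from -0.32 to 3.13. Gadd45b averaged 1.66 ± 1.95 CPM in fed knockout livers (n = 6) and 0.390 ± 0.197 CPM in fed control livers (n = 5), a difference of 2.05 ± 0.89 with adjusted p = 0.504 in edgeR. The interaction for Cdkn1a was 1.76 ± 1.25 and that for Gadd45b -1.69 ± 1.15, with intervals of -0.74 to 4.26 and -3.98 to 0.61. Thus a several-fold difference between genotypes in how far fasting moves either gene is inside the interval. For Mdm2 the corresponding intervals were -0.45 to 0.10 in fasted livers and -0.37 to 0.19 in fed livers.

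No member was separated between genotypes, where 0.489% of all tested genes were separated in fasted and 1.18% in fed livers. Ccng1 came nearest in fasted livers, with 22.8 ± 3.38 CPM in knockout (n = 6) and 18.1 ± 4.38 CPM in control livers (n = 5) and a log2 difference of 0.33 ± 0.15. Myc averaged 4.16 ± 1.65 CPM in fed knockout (n = 6) and 6.77 ± 4.18 CPM in fed control livers (n = 5), a difference of -0.70 ± 0.35 with adjusted p = 0.561 in edgeR. Endothelial marker sums had medians of 224 CPM in fasted knockout, 161 in fasted control, 186 in fed knockout and 119 in fed control livers. For Kupffer cell and macrophage markers these were 172, 113, 153 and 129 CPM. Lower in knockout were, among others, lymphocyte and neutrophil markers in fasted livers (4.81 and 5.71 CPM) and erythroid markers in fed livers (368 and 477 CPM). Their part in the genotype differences was not tested.

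Per kilobase, the order of the 9 genes differed with feeding. In fasted knockout livers mean levels were 19.8 ± 11.1 RPKM for Gadd45g, 18.8 ± 27.1 for Cdkn1a, 8.08 ± 4.02 for Gadd45b, 7.45 ± 6.19 for Btg2 and 6.49 ± 0.963 for Ccng1 (SD, n = 6). Below them came Mdm2 at 5.32 ± 0.489 RPKM, Ccnd1 at 3.81 ± 2.32, Myc at 2.94 ± 0.669 and Gadd45a at 0.371 ± 0.213. Neighbours in that order differed by less than the larger of their SDs, except Ccng1 from Mdm2 and Myc from Gadd45a. Fasted control livers were led by the same 3 genes, Gadd45g at 17.1 ± 12.7 RPKM, Cdkn1a at 7.13 ± 4.78 and Gadd45b at 6.30 ± 5.81 (SD, n = 5).

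Fed livers had another order. In fed knockout livers Ccng1 led at 7.26 ± 1.12 RPKM, before Gadd45g at 6.90 ± 3.74 and Mdm2 at 5.21 ± 0.901, and Gadd45b (1.31 ± 1.54), Cdkn1a (0.951 ± 1.01) and Gadd45a (0.712 ± 0.565) came last (SD, n = 6). Fed control livers had 6.36 ± 0.784 RPKM of Ccng1, 6.13 ± 2.75 of Gadd45g, 5.55 ± 1.23 of Mdm2, 2.81 ± 1.23 of Btg2, 2.63 ± 1.08 of Ccnd1 and 2.45 ± 1.51 of Myc (SD, n = 5). Last in fed controls were Cdkn1a at 1.19 ± 0.329 RPKM, Gadd45a at 1.15 ± 0.722 and Gadd45b at 0.308 ± 0.156. Of the neighbours in fed controls, Mdm2 from Btg2 and Gadd45a from Gadd45b differed by more than the larger of their SDs.

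The spread between libraries of a group differed widely among these genes. The SD of log2 CPM of Cdkn1a was 2.06 in fasted knockout livers, larger than that of 99.2% of all tested genes there, whose median was 0.44. In fed control livers the SD of Cdkn1a was 0.43, close to the median of 0.47. Gadd45b had its widest spread in fed knockout livers, an SD of 2.13 that exceeded 99.3% of genes. That spread rests on 1 to 145 reads per library, and the genes compared were of any abundance. At the other end, Mdm2 had an SD of 0.13 in fasted knockout livers and 0.07 in fasted control livers, with 4.9% and 1.1% of genes steadier.

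**Figure D4:**
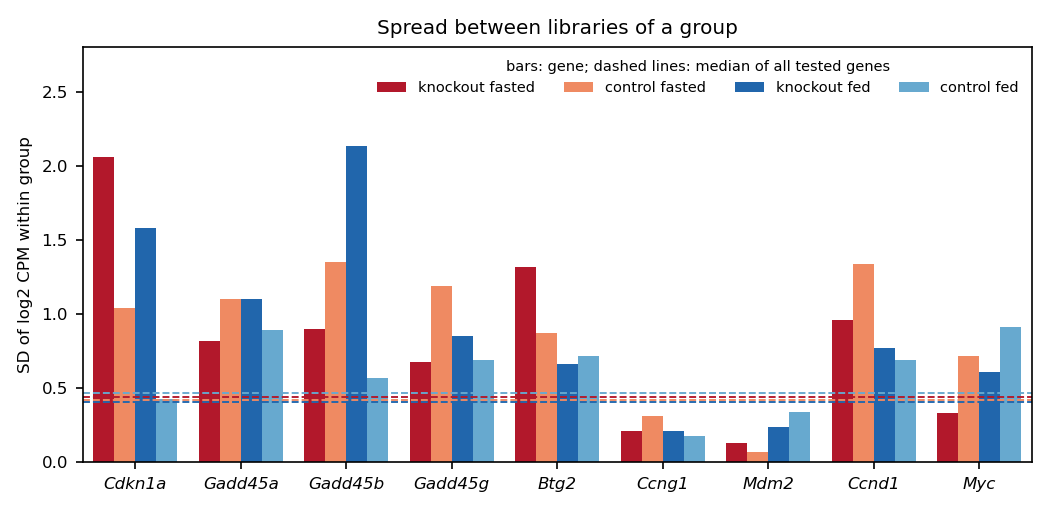
SD of log2 CPM between libraries of a group (bars) for each of the 9 genes, with the median SD over all tested genes as dashed lines. Cdkn1a reaches 2.06 in fasted knockout and Gadd45b 2.13 in fed knockout livers, against all-gene medians of 0.41 to 0.47, while Mdm2 stays at or below 0.34. Gadd45b had 1 to 145 reads per fed knockout library.

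High and low values of several members fell in the same libraries. Fasted knockout replicate 4 was the highest of its group for Cdkn1a, Btg2, Ccnd1 and Myc and the lowest for Mdm2, and replicate 3 was the lowest for Cdkn1a, Gadd45a, Gadd45b and Btg2. All 3 Gadd45 genes peaked in fasted knockout replicate 1. Fed knockout replicate 3 led for Cdkn1a, Gadd45b and Ccnd1, and fasted control replicate 1 for Gadd45a, Gadd45b, Btg2 and Ccnd1. The 20 most abundant genes took 40.9% of reads in fasted knockout replicate 4 and 40.4% in each of fed knockout replicate 3 and fasted control replicate 1, against 29.5% to 36.8% in the other 19 libraries. Those 3 libraries also had the highest hepatocyte marker sums of their groups, at 153671, 131173 and 137002 CPM. Over the groups that sum had a median of 110570 CPM in fasted and 88272 CPM in fed knockout livers, and 105625 CPM in fasted and 86550 CPM in fed control livers, and its part in the levels of these genes was not tested. With the 3 left aside, Cdkn1a was higher by 3.84 (adjusted p = 0.0071, edgeR) and Gadd45b by 3.43 (adjusted p = 0.0107) in fasted knockout livers.

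By Pearson correlation of log2 CPM over the 22 libraries, among 8892 genes, the genes most like Cdkn1a were Hacd3 (0.89), Ldha (0.88) and Apoa4 (0.86). Cpox (0.90) and Ldha (0.89) were most like Gadd45b, so that Ldha, a lactate dehydrogenase subunit, stood in both lists. Gadd45g was nearest to Rhbdd2 (0.80), Btg2 to Smarcb1 (0.84), Ccng1 to Xiap (0.86), Ccnd1 to Pfkl (0.82) and Myc to G6pc3 (0.79). Likeness was lower for Mdm2, nearest to Casp8ap2 (0.74), and for Gadd45a, nearest to Nudt16l1 (0.74). The libraries share their groups, depth and scaling, and these values describe likeness alone.

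Other genes of the same pathways were counted in 10 lists. Among 30 further p53 targets, 3 rose and 1 fell with fasting in knockout livers, and 2 rose in control livers, with list medians of 0.04 and 0.07 (log2). Over all tested genes 2.88% were called higher and 3.26% lower in knockout livers, and 3.99% higher in control livers. In control livers 692 of the 16757 genes tested were called lower. Ei24, an autophagy and endoplasmic reticulum protein, averaged 192 ± 33.4 CPM fasted and 127 ± 15.5 CPM fed in knockout livers (0.60 ± 0.12, adjusted p = 0.000702, edgeR). The exonuclease Aen rose by 0.69 ± 0.19 (adjusted p = 0.024, edgeR) and Perp, a membrane protein of desmosomes, by 0.37 ± 0.11 (0.0422), while the kinase Plk2 was lower by -0.97 ± 0.26 (0.0172). In control livers Ei24 and Perp were the genes called, at 0.84 ± 0.13 and 0.41 ± 0.12.

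Genes of the cycle itself were counted beside all 16757 genes tested. Of these, edgeR called 1029 with fasting in knockout and 1360 in control livers. Unadjusted, 2678 and 3276 of them had p under 0.05. Of 6 other CDK inhibitors tested out of 7, 0 were called with fasting in either genotype by edgeR, DESeq2 or limma, and 1 had an unadjusted p under 0.05 in each genotype. Of 4 BTG and TOB relatives of Btg2 tested, 0 were called by edgeR or DESeq2 in either genotype, limma called 1 in control livers, and 2 in knockout and 1 in control livers had an unadjusted p under 0.05. Of 19 G1 cyclin, CDK, RB and E2F genes, the cyclin Ccnd3 rose in both genotypes, by 0.65 ± 0.16 in knockout (adjusted p = 0.00765, edgeR) and 0.81 ± 0.17 in control livers (0.0021). In control livers the repressor E2f8 rose by 1.25 ± 0.30 and E2f1 was lower by -1.70 ± 0.39. Of 24 S phase and mitosis genes 0 were called by edgeR in either genotype, 2 in knockout and 3 in control livers had an unadjusted p under 0.05, and DESeq2 called 1 in control livers, with list medians of -0.25 and -0.67.

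Around Myc, 1 of 12 network partners was called lower in knockout livers: Mlxipl, the carbohydrate-responsive factor ChREBP, at 185 ± 33.9 CPM fasted and 318 ± 23.8 CPM fed (-0.78 ± 0.11, adjusted p = 1.18e-05, edgeR). Mlxipl was also lower in fasted control livers (-0.50 ± 0.13), where the repressor Mxi1 was higher (0.51 ± 0.16). Of all 16757 genes tested, 483 were called higher and 546 lower in knockout livers, and 668 and 692 in control livers. Of 22 growth and ribosome-making genes that Myc is known to induce, Ddx21 (0.50 ± 0.13) and Rrp12 (0.73 ± 0.21) rose in fasted knockout livers and 0 passed in control livers by edgeR, where 6 had an unadjusted p under 0.05, DESeq2 called 1 and limma 0. Unadjusted, 3276 of all 16757 genes tested had p under 0.05 in control livers.

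Of 11 kinases of the pathway that GADD45 proteins engage, Map3k4, the kinase that GADD45 proteins bind, was lower in fasted control livers (6.09 ± 2.27 CPM fasted and 11.3 ± 2.86 CPM fed, -0.89 ± 0.25, adjusted p = 0.0198, edgeR), as was Map2k3 (-0.46 ± 0.13). Over all 16757 genes tested, 668 were called higher and 692 lower with fasting in control livers. In knockout livers 0 of these 11 kinases passed in edgeR, DESeq2 or limma, and 4 had an unadjusted p under 0.05. Of all genes tested, 2678 in knockout and 3276 in control livers had an unadjusted p under 0.05. Of 20 immediate early genes, 0 were called by edgeR in either genotype. Unadjusted, 2 of them in knockout and 3 in control livers had p under 0.05, and in control livers DESeq2 called 2 and limma 1.

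The last list held 20 glucocorticoid and FOXO responsive genes. In knockout livers 4 of them rose: Fkbp5, a glucocorticoid receptor co-chaperone (2.12 ± 0.31), the clock gene Per1 (1.70 ± 0.46), Cebpd (1.42 ± 0.36) and Pck1, a gluconeogenic enzyme (0.89 ± 0.25). Fkbp5 averaged 104 ± 40.2 CPM in fasted and 24 ± 8.19 CPM in fed knockout livers (adjusted p = 0.000152, edgeR). In control livers Fkbp5 alone was called (2.23 ± 0.34), and DESeq2 and limma called 3 each. Among all tested genes 2.88% were called higher in knockout and 3.99% in control livers by edgeR. For knockout against control 0 of the 168 genes on these lists passed in edgeR, in fasted or fed livers. At the unadjusted level 4 in fasted and 12 in fed livers had p under 0.05, with 11 in the interaction, and DESeq2 and limma called 0. Over all 16757 genes tested these unadjusted counts were 672, 1509 and 786.

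Several of these list counts turn on single libraries. With fasting in knockout livers, the p53 targets called were 1 without fed knockout replicate 4, and 2 without fasted knockout replicate 3, without fed knockout replicate 6 or without the 3 libraries of high 20-gene share. The glucocorticoid and FOXO genes called there were 1 without fed knockout replicate 6, and 2 without fasted knockout replicate 1, without fed knockout replicate 5 or without those 3 libraries. Of the Myc-induced growth genes there, 0 were called without fasted knockout replicate 6, and 1 without any of fasted knockout replicates 1 and 4 or fed knockout replicates 1, 2, 5 and 6. In control livers the p53 targets called were 1 without fasted control replicate 5 or any of fed control replicates 1, 3 and 4, and the GADD45 pathway kinases called were 0 without fasted control replicate 5 or fed control replicate 3. The Myc network partners called were 1 without fasted control replicate 1, 3, 5 or 6 or fed control replicate 2, 3 or 5, and the glucocorticoid and FOXO genes called in control livers numbered 2 without fasted control replicate 2 or fed control replicate 1, 3 without fed control replicate 5, and 4 without fed control replicate 2 or fasted knockout replicate 4.

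Lists with few or 0 calls moved in the same way. In control livers 1 immediate early gene was called without any 1 of fasted control replicate 3, fed control replicate 4, fasted knockout replicate 5 and fed knockout replicates 1, 3, 4 and 6. There 1 relative of Btg2 was called without fasted control replicate 2, fed control replicate 4 or fasted knockout replicate 3 or 4, and 1 Myc-induced growth gene without fasted control replicate 1, fed control replicate 3 or fasted knockout replicate 4. The GADD45 pathway kinases called in control livers were 1 without fasted control replicate 3 or fed control replicate 1, and in knockout livers 1 without fed knockout replicate 3 or 5. Of the G1 genes, 2 were called in knockout livers without fasted knockout replicate 3.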

How the data were processed

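Liver RNA of 24 samples was sequenced after oligo-dT selection, per the labels' protocols. The deposited read counts per gene, in GRCm38 coordinates, were made by the authors with bcl2fastq, STAR (2.5.1a) and Subread's featureCounts (1.4.6-p5), per the submitters' processing notes. The deposited CPM, per the file headers and as checked, are counts relative to the library total without a scaling factor, and the deposited RPKM are that CPM per kilobase of listed gene length; both served only as a check. Annotation release and strand setting were not given in the sources used here. Gene symbols came from GENCODE M21 and covered 97.3% of the listed genes.

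Counts of 22 libraries were filtered with filterByExpr (minimum count 10), scaled by TMM and fitted over the 4 groups together by edgeR 4.0.16 (robust quasi-likelihood, R 4.3.3), with Benjamini-Hochberg adjustment over 16757 genes and a threshold of 0.05. Each SE was derived as the size of the log2 difference over the root of its F statistic. Reported levels are CPM with TMM scaling, or RPKM from it. The correlations use log2 CPM with a prior count of 2, among genes with a mean of at least 2. The steps were tested on simulated counts. No libraries of a group shared counts within sampling noise (chi-square per degree of freedom of at least 37.4 in 55 pairs). Groups come from the titles and characteristics. The members and gene lists were chosen with earlier results of these data known. Text names the 9 members, up to 4 genes of smallest p per list and, of the 3 most alike genes per member, 1 to 3, under that rule, besides Gpt2; 1 result of that rule is not reported here. DESeq2 1.42.0, limma 3.58.1, other scalings and filters, and each library left out were tried as alternatives, and 1 more, without the 3 libraries with the highest share of reads in 20 genes, was chosen after seeing the data. Low read totals limit the precision for Gadd45a and, in fed livers, for Gadd45b and Cdkn1a.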

Additional observations from a re-analysis of the deposited data

Results flagged for a closer look

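In fasted control livers replicate 5 stood apart from the other 4 libraries for Ccng1, at 25.9 CPM against 15.2 to 16.8 CPM, and for Mdm2, at 33.1 CPM against 29.5 to 29.8 CPM. On the log2 CPM scale the gap to the nearest library took up 0.806 of the range for Ccng1 and 0.892 for Mdm2, above Dixon's 95% critical value of 0.71. Of 36 groups of values examined, chance would mark about 1 in 20. That library also had the highest sum of kidney tubule markers of its group, 17.4 CPM against a group median of 0.292 CPM. Its part in these values was not tested.

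The library labelled control fasted replicate 4, which was left out of every comparison, had more of 4 members than any of the 22 libraries used. It held 10.1 CPM of Gadd45a, 57.1 CPM of Gadd45g, 76.9 CPM of Ccng1 and 55.8 CPM of Ccnd1, scaled over 23 libraries. The highest of the 22 reached 4.24, 49.3, 32.4 and 30.0 CPM for the same genes on that scale.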

How the results depend on the processing

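No paired analysis was possible because the labels number no replicates (the numbers used here follow accession order) and no title number occurs in more than 1 group. Clusters of adjoining title numbers, whose meaning is not stated, were tried only as a random effect in limma voom, with a consensus correlation of -0.013. That setting therefore also changes the tool from edgeR. In knockout livers the members called with fasting were 1 in place of 2, Cdkn1a, with the library labelled control fasted replicate 4 kept or with no filter beyond 1 count. With limma sample weights and with the groups compared alone the count was also 1, but the gene was Myc. Neither Cdkn1a nor Gadd45b passed in those 2 settings. The count was 0 with title-number clusters, and 1 to 2 when single libraries were left out. In control livers it was 2 in place of 1 with DESeq2, without the 3 libraries of high 20-gene share and with the groups compared alone, and 0 with limma sample weights or title-number clusters, counts that only describe values known when the genes were named. Of all genes, 805 in place of 1360 were called with fasting in control and 379 in place of 1029 in knockout livers when the library labelled control fasted replicate 4 was kept, which gave 0 in both genotype comparisons and the interaction. For knockout against control, fed, 1 gene became 5 with library totals, 14 with no filter and 64 with DESeq2, and 1 to 13 with single libraries left out. Fasted it became 3 with DESeq2, and the interaction 6 with DESeq2, 0 without the 3 libraries and 0 to 1 with single libraries left out. Library totals called 357 genes higher and 616 lower with fasting in knockout livers, against 483 and 546 with TMM.

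Signs that turned belong to differences that passed no test in any setting. With that library kept, fasting in control livers gave 0.38 for Gadd45a, 0.31 for Ccng1 and 0.75 for Ccnd1, knockout against control in fasted livers -0.17 for Gadd45g, -0.28 for Ccng1 and -0.22 for Ccnd1, and the interaction -0.35 for Gadd45g, -0.47 for Ccng1 and -0.48 for Ccnd1. Without the 3 libraries of high 20-gene share, Btg2 had -0.09 for fasting in control livers, Ccnd1 -0.21 for knockout against control in fed livers, Gadd45g -0.02 and Myc -0.01 in fasted livers, and the interaction was 0.32 for Gadd45a and -0.25 for Gadd45g. Library totals gave -0.03 for Mdm2 with fasting in knockout livers, 0.04 for Btg2 between fed genotypes and -0.03 for Gadd45g in the interaction. Title-number clusters gave 0.07 for Btg2 between fed genotypes and, in the interaction, 0.10 for Gadd45a and 0.08 for Gadd45b, and limma sample weights gave 0.18 for Gadd45a there. Leaving out single libraries gave, for fasting in control livers, -0.09 to 0.66 (Btg2), -0.00 to 0.22 (Mdm2), -0.50 to 0.14 (Ccnd1) and -0.08 to 0.46 (Myc), and in knockout livers -0.03 to 0.12 (Mdm2) and -0.01 to 0.75 (Ccnd1). For knockout against control the ranges were -0.13 to 0.56 (Gadd45g) and -0.04 to 0.33 (Myc) in fasted livers, and -0.08 to 0.41 (Gadd45g), -0.20 to 0.23 (Btg2), -0.21 to 0.01 (Mdm2) and -0.21 to 0.43 (Ccnd1) in fed livers. Interaction ranges were -0.59 to 0.30 (Gadd45a), -0.32 to 0.38 (Gadd45g) and -0.18 to 0.04 (Mdm2). Of 1431 values of single members under an alternative, 1333 kept direction and side of the threshold, 64 turned sign, 28 lost a call and 6 gained one. The cause of these changes was not tested.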
